A study of Homo sapiens with 8 samples.

Results

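Epithelial cells hold together through cell junctions, and the genes described here build those junctions and the filaments anchored to them. The set was given as a list of symbols and holds 51 genes: 5 of the adherens junction, 10 of the desmosome, 6 tight junction scaffolds and partners, 8 claudins, 12 keratins, 7 transcription and splicing regulators of epithelial genes and 3 surface proteins or proteases. Members were found by matching the RefSeq accession of each array probe to a gene symbol. A probe was found for 49 of the 51, and 34 had a probe bright enough to be tested, among 15455 genes tested in all.

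The cells were OAW42-R, which were made resistant to cisplatin by repeated exposure of OAW42, a serous ovarian carcinoma line. They were transfected at 20 nM either with a nontargeting pool of control siRNAs (sictrl) or with a pair of siRNAs, numbers 2 and 4, against UCA1, a long noncoding RNA that these cells express strongly (siUCA1). Both conditions were the same line with the same reagent, no array of untransfected cells was analysed here, and the pair of siRNAs was not separated, so that an effect of either alone cannot be told apart. RNA was taken 24 h after transfection according to the labels, while the study's text gives a later time. Each condition had 4 arrays, named A1, M2, A2 and A3, which the study describes as 4 independent experiments.

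An adherens junction joins neighbouring cells through cadherins, whose tails bind catenins and through them actin. A desmosome does the same with desmosomal cadherins, plakophilins, plakoglobin and desmoplakin, and its partners are the keratin filaments. Tight junctions seal the space between cells with claudins, occludin and tricellulin, held by scaffold proteins such as the ZO family. In carcinoma cells these genes are read as a sign of the epithelial state, and their loss accompanies the change towards a mesenchymal state. The factors GRHL2 and OVOL1, together with the splicing factor ESRP1, are known to keep the epithelial programme on, while SNAI and ZEB proteins bind the E-box sequence and repress CDH1.

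Levels are log2 intensities of a probe after the 75th percentile of its array was subtracted, and differences are siUCA1 minus sictrl on that scale. A gene was called when its adjusted p in limma (Benjamini-Hochberg over all genes tested) was under 0.05. Counts at an unadjusted p under 0.05 are also given, and the share of all genes at that threshold was not counted. A probe was kept when, in one condition or both, the scanner software marked it well above background on each of the 4 arrays. The targeted RNA was checked first: UCA1 stood at 8.35, 8.37, 8.60 and 7.48 on the sictrl arrays A1, M2, A2 and A3 and at 3.68, 2.59, 3.02 and 3.34 on the siUCA1 arrays. The lowest sictrl value lay far above the highest siUCA1 value, and UCA1 fell by 5.04 (SE 0.29, limma adjusted p = 0.000122). All 8 arrays shared 1 slide of 2 rows and 4 columns, and each row and each column held both conditions. The surface trend that the scanner software fits and removes was larger on the sictrl array A3 and the siUCA1 array A1 than on the other 6 arrays (root mean square 0.321 and 0.287, against 0.0737 to 0.0943), so the calls are also given without both of them.

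The members that carry the results include a few whose promoters are shown for reference, each window holding 250 bases before the start site and 50 after it. The windows are those of RefSeq on GRCh38.p14, on the gene's own strand, and capitals mark the E-box letters CACCTG or, on the other strand, CAGGTG. MARVELD2 and TJP3 fell, DSC2 rose, and CLDN7 is shown because 1 of its 2 windows held 5 E-boxes while its probe was not kept. TJP3, DSC2 and CLDN7 have 2 windows each, of which the one with an E-box is printed.
MARVELD2 (chr5:69414866-69415165, plus strand): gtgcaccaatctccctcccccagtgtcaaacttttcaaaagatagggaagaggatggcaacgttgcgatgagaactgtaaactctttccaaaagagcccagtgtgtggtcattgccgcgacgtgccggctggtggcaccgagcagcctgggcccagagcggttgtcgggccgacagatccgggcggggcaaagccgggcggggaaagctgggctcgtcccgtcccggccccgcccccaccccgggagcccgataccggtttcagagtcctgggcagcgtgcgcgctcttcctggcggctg
TJP3 (chr19:3721487-3721786, plus strand): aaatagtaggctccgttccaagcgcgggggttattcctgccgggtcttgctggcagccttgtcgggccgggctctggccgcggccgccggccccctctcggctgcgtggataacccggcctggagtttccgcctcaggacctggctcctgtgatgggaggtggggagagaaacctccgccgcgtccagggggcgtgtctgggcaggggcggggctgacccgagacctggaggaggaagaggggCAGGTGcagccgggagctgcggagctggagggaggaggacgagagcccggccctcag
DSC2 (chr18:31102372-31102671, minus strand): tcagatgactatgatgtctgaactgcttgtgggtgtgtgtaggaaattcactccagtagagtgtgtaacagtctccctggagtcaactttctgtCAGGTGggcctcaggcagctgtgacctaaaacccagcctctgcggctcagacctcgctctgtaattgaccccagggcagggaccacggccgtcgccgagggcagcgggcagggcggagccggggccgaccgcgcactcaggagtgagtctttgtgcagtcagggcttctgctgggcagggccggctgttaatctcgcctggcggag
CLDN7 (chr17:7262429-7262728, minus strand): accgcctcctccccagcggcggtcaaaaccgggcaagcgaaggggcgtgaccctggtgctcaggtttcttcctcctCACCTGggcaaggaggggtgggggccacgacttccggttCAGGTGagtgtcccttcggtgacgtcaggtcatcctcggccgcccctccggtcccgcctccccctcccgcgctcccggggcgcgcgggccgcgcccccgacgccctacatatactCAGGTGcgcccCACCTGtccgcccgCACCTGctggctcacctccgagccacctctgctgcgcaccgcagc
No E-box was found in the MARVELD2 window. The printed window of TJP3 held 1, at position -7 from the start site, and that of DSC2 held 1, at -156. The other windows of TJP3, DSC2 and CLDN7 held 0. A window was at hand for 27 members (42 windows, some of them alternative and overlapping starts of 1 gene). Of these 42 windows, 35.7% held CACCTG on either strand, against 20.6% of the 35114 windows of all genes. The letters AACCGGTT, known as the GRHL site, were in 0 of the member windows and 0.134% of all windows, and TGANTCA, the AP-1 site, was in 4.76% and 7.71%. These are counts of letters and say nothing of binding, and windows of CDH1, EVPL, PKP3, KRT15 and EPCAM were not analysed here.

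Detection on the arrays was mixed for these genes. In these bulk samples fewer cells of a type and less RNA per cell cannot be told apart. KRT7, KRT8, KRT18, KRT19, EPCAM, CDH1 and CLDN3 were well above background on all 8 arrays. The regulators mostly were not: GRHL2, ESRP1 and OVOL1 were well above background on 0 of 8 arrays, and GRHL1 was on 2 sictrl and 2 siUCA1 arrays by the brighter of its 2 probes. ESRP2, the paralog of ESRP1, and ELF3, an ETS-family epithelial factor, were detected on all 8. The other members that were not kept were CDH3, DSC3, DSG3, PKP1, CLDN6, KRT5, KRT17 and KRT23, all detected on 0 arrays. PPL was detected on 1 siUCA1 array, CLDN7 on 1 sictrl array and KRT80 on 3 sictrl and 2 siUCA1 arrays. KRT86 and OVOL2 had no probe that matched.
Several of these genes lie next to each other in the genome. CDH1 and CDH3 are neighbours with no protein-coding gene between them in the RefSeq order, and CDH1 was detected on all 8 arrays while CDH3 was detected on 0. DSC2 and DSC3 are likewise neighbours, as are DSG2 and DSG3, and the first of each pair was tested while the second was not detected. KRT15 and KRT19 are neighbours, and so are CLDN3 and CLDN4, and MARVELD2 and OCLN.

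**Figure D1:**
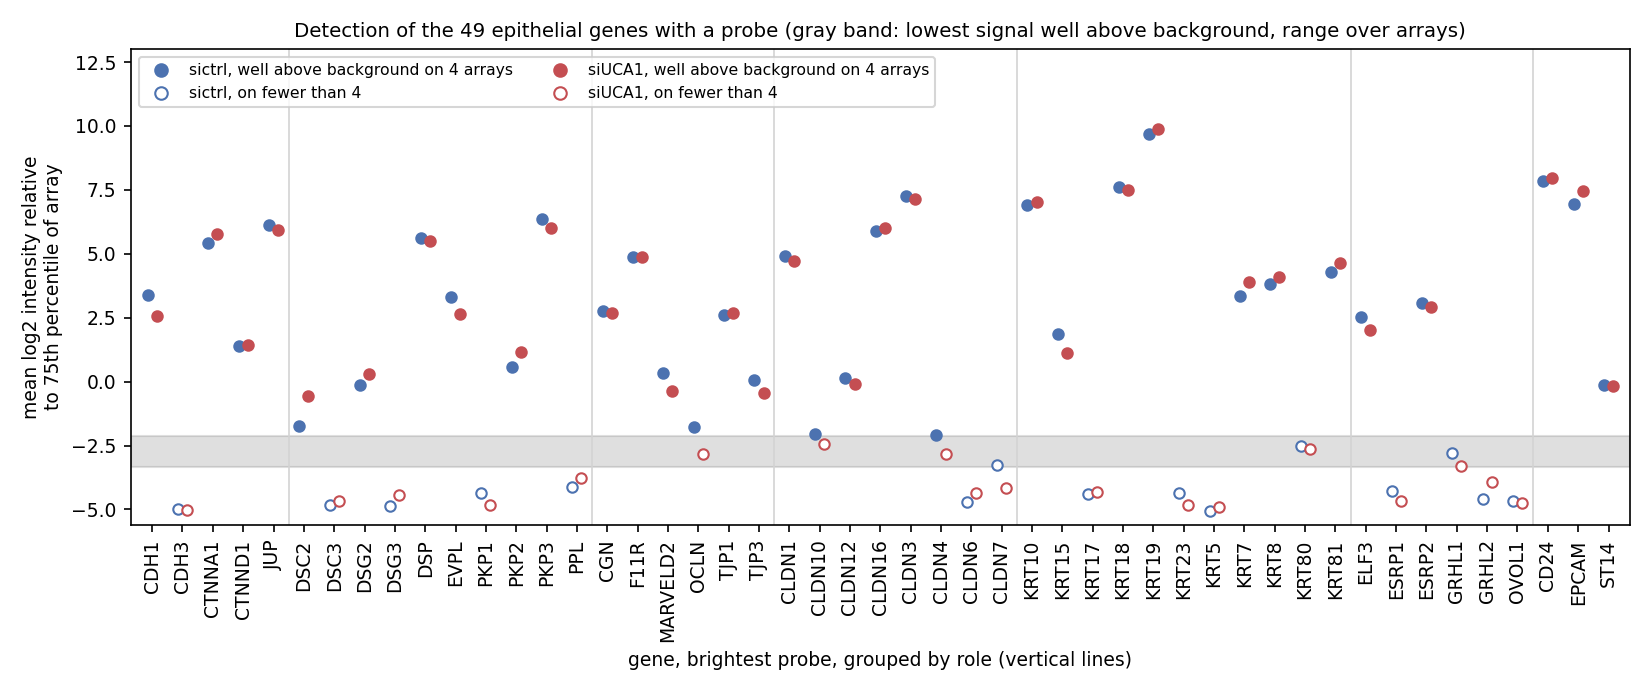
Mean log2 intensity relative to the 75th percentile of the array (y axis) of the brightest probe of each of 49 members (x axis, grouped by role), for sictrl in blue and siUCA1 in red. Filled points were well above background on all 4 arrays of the condition and open points on fewer, the gray band spans the lowest signal well above background over the 8 arrays, and heights of different probes are not to be compared.

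Of the 34 members tested, 7 were called: 6 were lower and 1 was higher in siUCA1. That is 20.6%, against 11.6% of all genes tested. All members were found through RefSeq names. In a fit of the 11995 genes so named, 14.6% were called, with the same 7 members. The lower calls made 17.6% of the members against 5.85% of all genes, and the higher call 2.94% against 5.72%. The 4 values of each condition did not overlap for 9 members, which is 26.5% against 20.9% of all genes. The median difference over the members was -0.09, against 0.03 for all genes, with 15 members above 0 and 19 below. OCLN, CLDN4 and CLDN10 were kept through sictrl alone and lay below 0. Among the 31 members detected on all 8 arrays the median was -0.05, with 15 above 0 and 16 below. Differences ran from -1.09, for OCLN, which was mostly not well above background in siUCA1, to 1.20 for DSC2. The median SD between arrays of the same condition was 0.21 for the members and 0.22 for all genes.

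**Figure D2:**
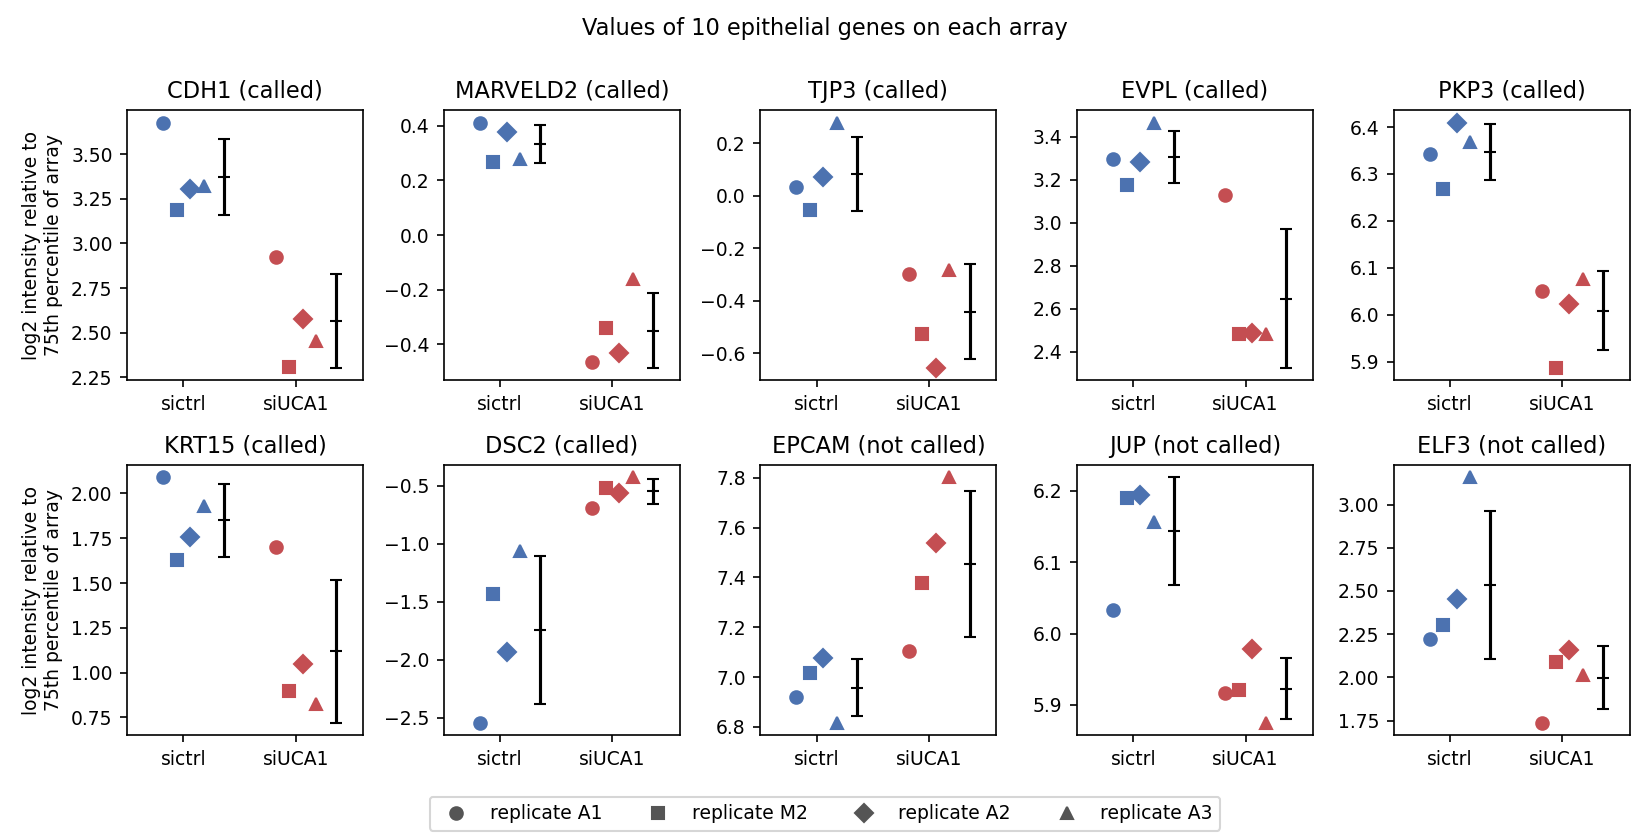
Values on each array (y axis, log2 intensity relative to the 75th percentile of the array) for the 7 called genes and for EPCAM, JUP and ELF3, which were not called although their conditions did not overlap. Marker shapes give the array name, and the bars give the mean with the SD over 4 arrays. KRT15 is the only called gene here whose conditions overlap.

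In the adherens junction, CDH1, which encodes E-cadherin, fell. Its levels were 3.68, 3.19, 3.31 and 3.32 on the sictrl arrays A1, M2, A2 and A3 and 2.92, 2.31, 2.57 and 2.45 on the siUCA1 arrays. Every siUCA1 value was below every sictrl value. CDH1 fell by 0.81 (SE 0.16, limma adjusted p = 0.0149), which corresponds to a level 1.75-fold lower. Within slide row 1 the difference was -0.56 and within row 2 it was -1.06. The call was kept in all 8 fits that left out 1 array, with differences from -0.93 to -0.71. JUP, which encodes plakoglobin and serves both adherens junctions and desmosomes, stood at 6.03, 6.19, 6.19 and 6.16 in sictrl and at 5.92, 5.92, 5.98 and 5.87 in siUCA1. The conditions did not overlap, but the difference of -0.22 did not pass (SE 0.08, limma adjusted p = 0.127). CTNNA1, the alpha-catenin that ties cadherins to actin, differed by 0.34 with overlapping values, and CTNND1, which encodes p120 catenin, by 0.07, and neither was called. Without sictrl A3, CTNNA1 was called at 0.45 (limma adjusted p = 0.0214). The second kept probe of CTNNA1 differed by 0.18 and was not called. It stood at 3.30 on siUCA1 A1, against 2.04 to 2.27 on the other siUCA1 arrays. CTNND1 ran from -0.01, without siUCA1 A2, to 0.19, without siUCA1 A1.

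The desmosome genes went both ways, with 2 lower and 1 higher among 6 tested. That is 50% of a small group, against 11.6% of all genes tested and 14.6% of those with a RefSeq name. EVPL, which encodes envoplakin, a plakin that links desmosomes and the cornified envelope to keratin, stood at 3.29, 3.17, 3.28 and 3.46 in sictrl and at 3.13, 2.48, 2.49 and 2.48 in siUCA1. The siUCA1 arrays M2, A2 and A3 lay well below the sictrl arrays, and A1 lay just under the lowest of them. EVPL fell by 0.66 (SE 0.16, limma adjusted p = 0.0337). Its call held in 1 of the 8 fits without 1 array, the one without siUCA1 A1, where the difference was -0.82. With the array name as a block, which compares arrays of the same name, EVPL was not called.
PKP3, a plakophilin, stood at 6.34, 6.27, 6.41 and 6.37 in sictrl and at 6.05, 5.89, 6.02 and 6.08 in siUCA1. The arrays of a condition lay close together and the conditions did not overlap. PKP3 fell by 0.34 (SE 0.09, limma adjusted p = 0.0400), with the call held in 2 of 8 fits without 1 array. It was not called with the array name as a block.
DSC2, which encodes the desmosomal cadherin desmocollin 2, was the 1 member that rose. It stood at -2.55, -1.43, -1.93 and -1.06 in sictrl and at -0.69, -0.52, -0.56 and -0.43 in siUCA1. The siUCA1 arrays were close together and all above the sictrl arrays, which were spread. DSC2 rose by 1.20 (SE 0.28, limma adjusted p = 0.0286), a level 2.29-fold higher, and its call held in 3 of 8 fits without 1 array. With normexp background correction the difference was 0.53 and was not called (limma adjusted p = 0.0761). DSG2, the desmoglein partner of DSC2, differed by 0.43 (limma adjusted p = 0.117) and PKP2 by 0.61 (limma adjusted p = 0.231), or 0.34 without sictrl A1. Without sictrl A3, DSG2 was called at 0.58 (limma adjusted p = 0.0113). DSP, the desmoplakin that binds keratin, differed by -0.13 and was not called. That difference rested on the siUCA1 array A1, at 4.95 against 5.66 to 5.68 on the other siUCA1 arrays, and without it was 0.05. The second DSP probe differed by 0.01.

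Among tight junction genes, MARVELD2, which encodes tricellulin, the protein of corners where several cells meet, had the lowest adjusted p of the members. It stood at 0.41, 0.27, 0.38 and 0.28 in sictrl and at -0.47, -0.34, -0.43 and -0.16 in siUCA1. The conditions were well separated. MARVELD2 fell by 0.69 (SE 0.10, limma adjusted p = 0.00519), with differences of -0.64 within row 1 and -0.73 within row 2, and was called in all 8 fits without 1 array.
TJP3, which encodes the scaffold ZO-3, stood at 0.03, -0.05, 0.07 and 0.28 in sictrl and at -0.30, -0.53, -0.66 and -0.28 in siUCA1. No siUCA1 value reached the lowest sictrl value. TJP3 fell by 0.52 (SE 0.12, limma adjusted p = 0.0283), and its call held in 3 of 8 fits without 1 array. With normexp the difference was -0.27 and was not called (limma adjusted p = 0.365). OCLN, which encodes occludin and neighbours MARVELD2, was not called (limma adjusted p = 0.181). Its kept probe was well above background on 4 sictrl arrays and on 1 siUCA1 array, so the measured difference of -1.09 (SE 0.48) rests mostly on siUCA1 values that are not well above background. Without siUCA1 A1, at -4.32, it was -0.60. With the array name as a block OCLN was called, but it was kept through sictrl alone, so that call is no support. TJP1, the ZO-1 scaffold, differed by 0.09, CGN (cingulin) by -0.09 and F11R (the adhesion molecule JAM-A) by 0.01, and none of these was called. With 1 array left out, TJP1 ran from 0.01 to 0.19, CGN from -0.16 to -0.01 and F11R from -0.05 to 0.11. The second kept probe of F11R differed by -0.26 and was not called.
None of the 6 claudins tested was called by limma in the fit as reported, and 1 of them, CLDN4, had an unadjusted p under 0.05. CLDN4 stood at -2.26, -2.18, -2.29 and -1.58 in sictrl and at -2.96, -3.09, -3.44 and -1.82 in siUCA1. The conditions overlapped through the siUCA1 array A3, and the probe was well above background on 1 siUCA1 array against 4 sictrl arrays. Its difference was -0.75 (SE 0.33, limma adjusted p = 0.179). It was -0.39 with dim values raised to the detection limit and -0.10 with normexp. Without siUCA1 A3 it was -1.09 and was called (limma adjusted p = 0.0242). CLDN4 was also called with array weights and with the array name as a block. It was kept through sictrl alone, so these calls are no support. CLDN3, CLDN1, CLDN10, CLDN12 and CLDN16 differed by -0.39 (CLDN10) to 0.11 (CLDN16), and CLDN10 by -0.16 without siUCA1 M2 and -0.25 without sictrl A1.

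Of 7 keratins tested, KRT15, a type I keratin of basal cells, was called. That is 14.3%, near the 11.6% of all genes tested and the 14.6% of those with a RefSeq name. KRT15 stood at 2.09, 1.63, 1.75 and 1.93 in sictrl and at 1.70, 0.90, 1.05 and 0.83 in siUCA1. The siUCA1 array A1 lay above the lowest sictrl array, so the conditions overlapped, and the two-sided exact permutation p was 0.0571. KRT15 fell by 0.73 (SE 0.20, limma adjusted p = 0.0478), within row 1 by 0.43 and within row 2 by 1.04, and the call held in 1 of 8 fits without 1 array, the one without siUCA1 A1, where the difference was -0.93.
The keratins of simple epithelia were not called. KRT19 stood at 9.54, 9.41, 9.43 and 10.35 in sictrl and at 10.49, 9.47, 9.72 and 9.77 in siUCA1. One array stood high in each condition, sictrl A3 and siUCA1 A1, which are the arrays with the larger surface trend, and the part of that trend in the result was not tested. Its difference was 0.18 (SE 0.27, limma adjusted p = 0.713). It was 0.40 without sictrl A3 and turned to -0.03 without siUCA1 A1. KRT18, the type I partner of KRT8, stood at 7.54, 7.51, 7.68 and 7.65 in sictrl and at 7.47, 7.40, 7.52 and 7.59 in siUCA1, with a difference of -0.10 (SE 0.09, limma adjusted p = 0.535). The values overlapped, and the difference was -0.21 with quantile normalization, -0.19 with median scaling and -0.18 with normexp.
KRT8 stood at 3.1, 3.73, 3.95 and 4.44 in sictrl and at 3.40, 4.13, 4.35 and 4.54 in siUCA1, a difference of 0.30 (SE 0.32, limma adjusted p = 0.59). Leaving out 1 array moved it from 0.07, without sictrl A1, to 0.53, without siUCA1 A1, and it was 0.15 without siUCA1 A3 and 0.51 without sictrl A3. Its other kept probe, of the transcript NR_045962, differed by -0.44, so the 2 probes did not give 1 direction. KRT7, a keratin of ductal and glandular epithelia, stood at 3.28, 3.43, 2.77 and 3.84 in sictrl and at 4.14, 3.87, 3.97 and 3.58 in siUCA1, a difference of 0.56 (SE 0.22, limma adjusted p = 0.137). The sictrl array A3 lay within the siUCA1 values, and without that array KRT7 was called at 0.73 (limma adjusted p = 0.0409). KRT10 and KRT81 differed by 0.12 and 0.37 and were not called, and KRT81 by 0.19 without siUCA1 A1 and 0.59 without siUCA1 A3. Near-identical keratin genes and pseudogenes could share a probe, KRT81 and KRT86 among them, and this was not tested.

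The regulators and surface genes were not called by limma, with an unadjusted p under 0.05 for 1 of 2 regulators (ELF3) and 1 of 3 surface genes (EPCAM). ELF3 stood at 2.22, 2.31, 2.45 and 3.16 in sictrl and at 1.74, 2.09, 2.16 and 2.01 in siUCA1. The conditions did not overlap, and the difference was -0.54 (SE 0.21, limma adjusted p = 0.131). It was -0.33 without sictrl A3. ESRP2 differed by -0.15, or -0.08 without siUCA1 M2. EPCAM, an adhesion protein of epithelial cells, stood at 6.92, 7.02, 7.08 and 6.82 in sictrl and at 7.10, 7.38, 7.54 and 7.80 in siUCA1. All siUCA1 values were above all sictrl values, and the difference of 0.50 did not pass (SE 0.15, limma adjusted p = 0.0675). Without siUCA1 A1, EPCAM was called at 0.61 (limma adjusted p = 0.0182), and it was called in 4 of 28 alternative settings. CD24, whose near-identical copies could share its probe, and ST14, a protease of the epithelial surface, differed by 0.12 and -0.05.

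**Figure D3:**
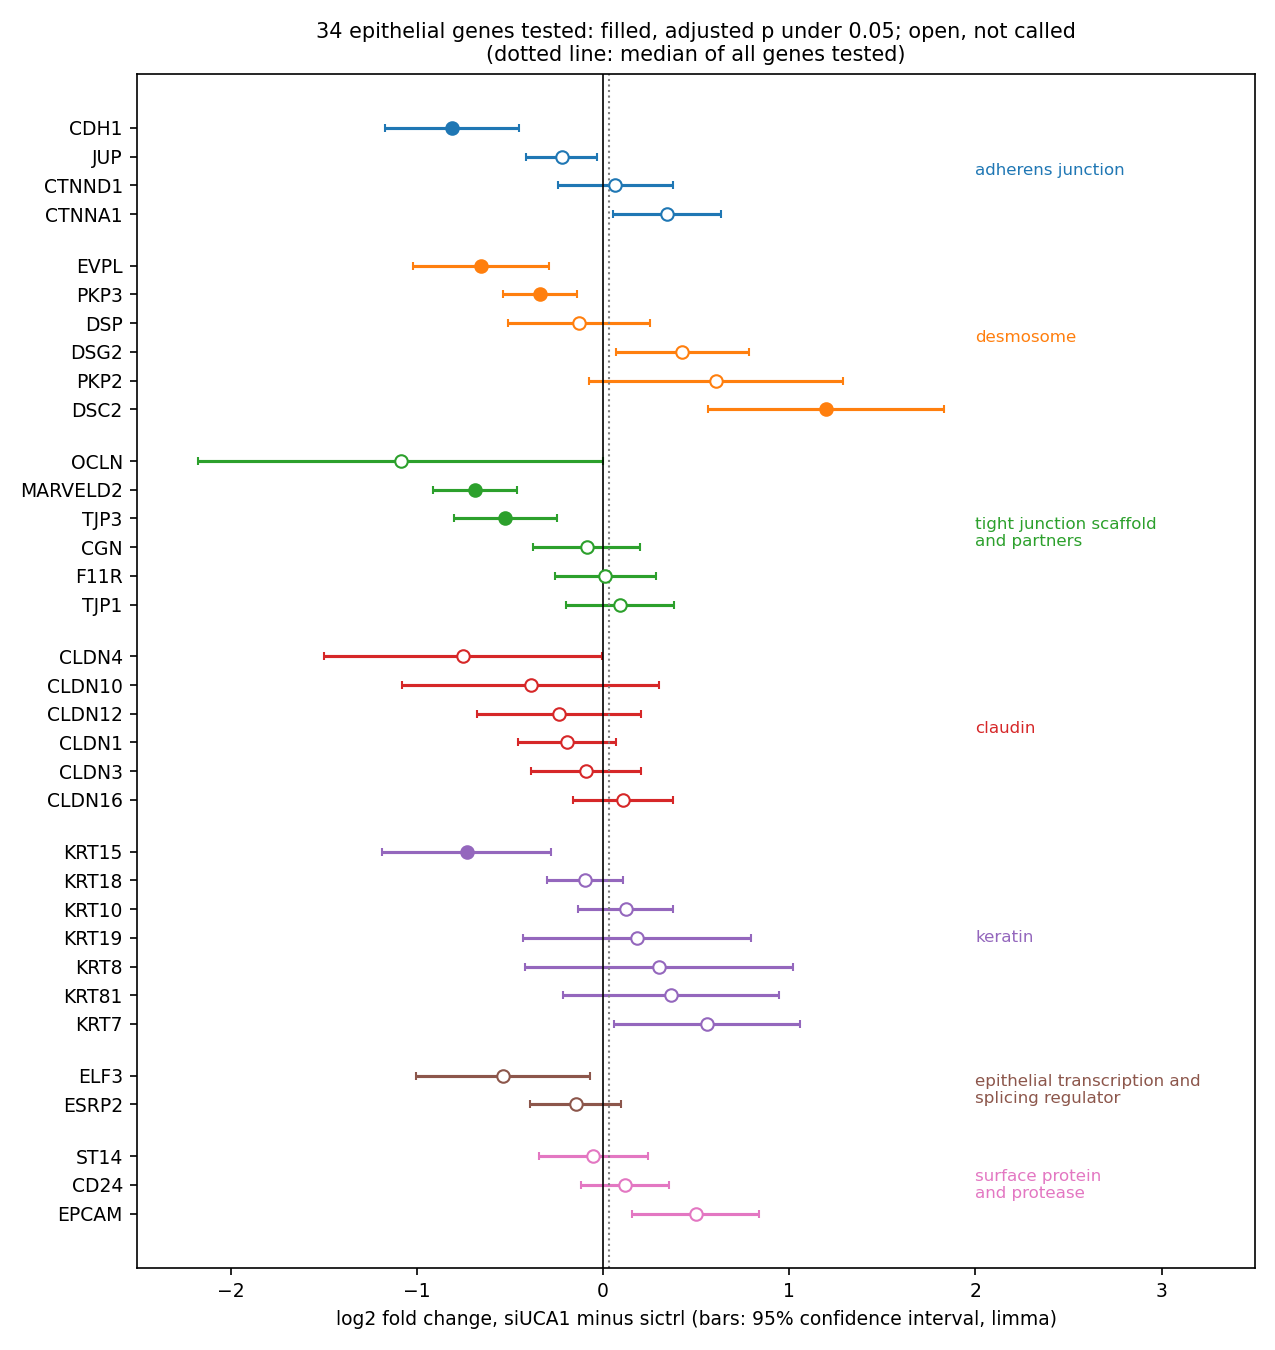
Difference in level (x axis, log2, siUCA1 minus sictrl) of the 34 tested members by role, with 95% confidence intervals from limma. Filled points were called and open points were not, and the dotted line is the median of all genes tested, 0.03.

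The calls were not equally steady. Of 28 alternative settings, CDH1 was called in 26, MARVELD2 in 24, DSC2 in 19 and TJP3 in 18, and PKP3, EVPL and KRT15 in 14 or 15. None of the 7 changed direction in any setting, and leaving out 1 array moved none of them by more than 1.5 times. Of the 27 members that were not called, 20 moved by more than that or changed sign in at least 1 of these fits, and the sign changed for CTNND1, DSP, F11R, KRT19 and ST14, so the small differences given for uncalled members have no settled size. Without the 2 arrays with the larger surface trend, 6 members were called higher (CTNNA1, DSC2, DSG2, EPCAM, KRT7 and PKP2) and 7 lower, the 6 of the 8-array fit and CLDN1. In that fit 25.6% of all genes were called, against 11.6% with 8 arrays.
When the surface trend was removed over all spots, 0 members were called by limma (7 at an unadjusted p under 0.05), with CDH1 at -0.80 and MARVELD2 at -0.62. When it was removed over bright spots instead, 7 were called, 5 of them shared with the fit as reported and TJP3 and EVPL not among them. Of all genes, 1.63% and 15.2% were called by adjusted p in these forms, which is no background for the 7 at an unadjusted p. The second form was added after the first had been seen. Without a detection filter 0 members were called by limma (10 at an unadjusted p under 0.05), normexp background correction left CDH1 as the 1 call, and median scaling left CDH1 and DSC2. The shares of all genes called were 0.159%, 2.7% and 3.46% in these fits, again by adjusted p. Leaving out the array M2 or A2 of either condition left 2 calls, CDH1 and MARVELD2. Of all genes, 4.94% to 5.77% were called in these fits.

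**Figure D4:**
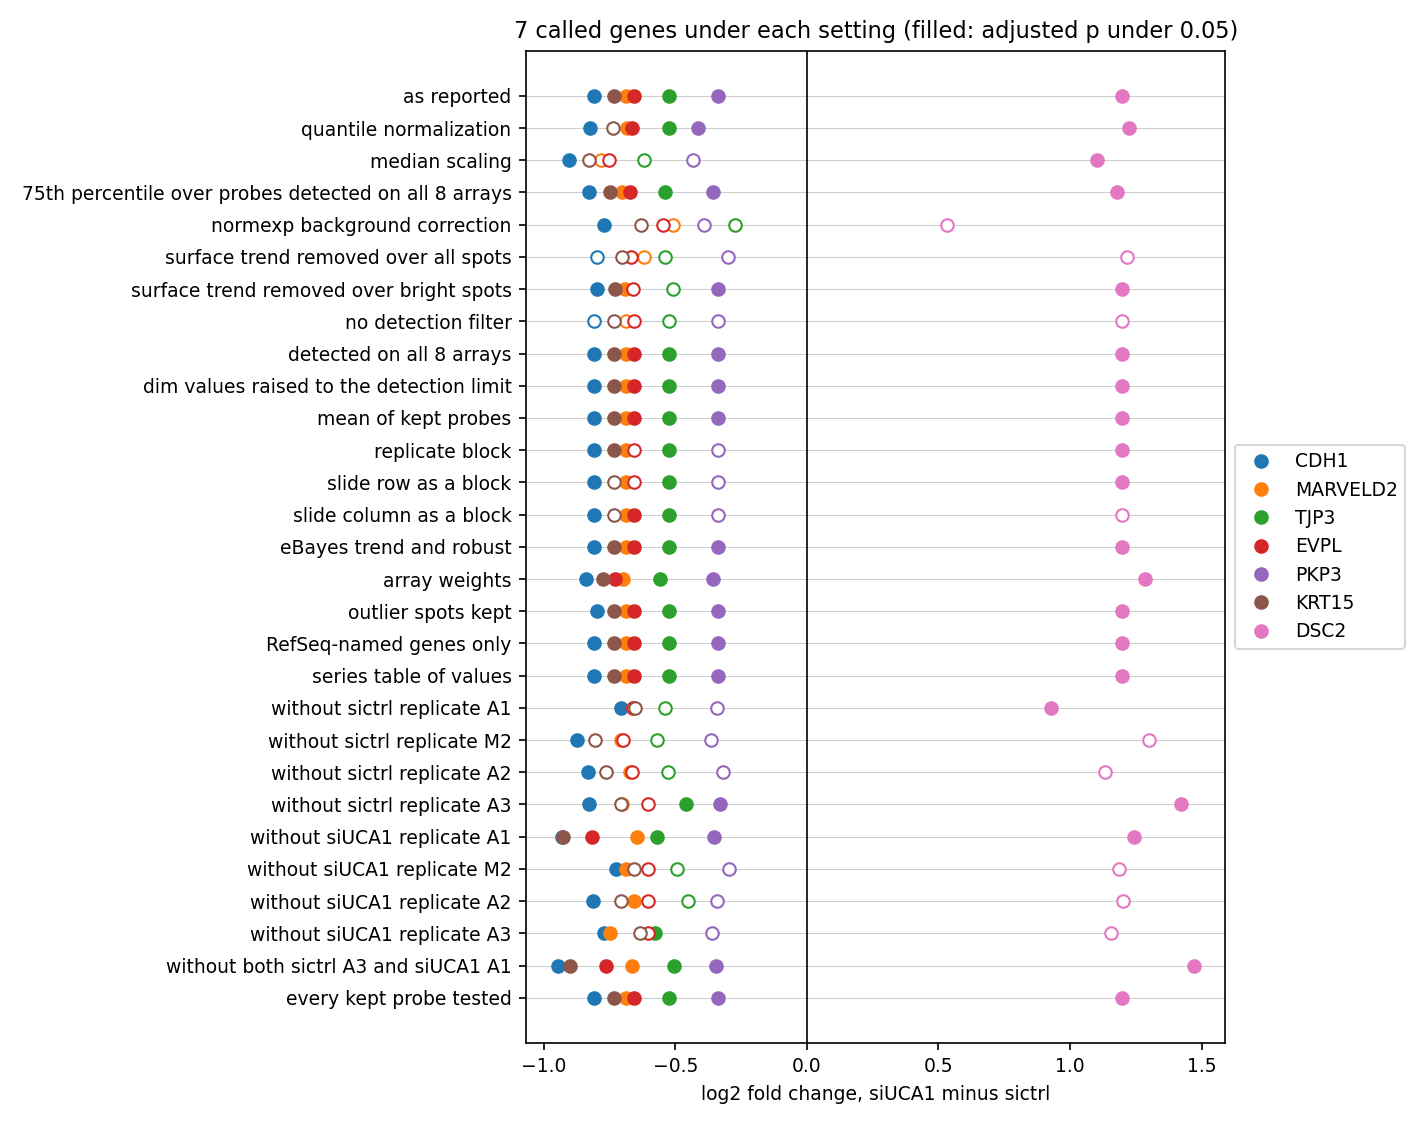
Log2 difference (x axis) of the 7 called members as reported and under each alternative setting (y axis). Filled points have an adjusted p under 0.05 and open points do not, and the points of a gene stay on 1 side of 0.

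The other genes of the pathway, from lists chosen beside the members, showed calls in both directions. Of 33 other junction and polarity genes tested, 4 were higher and 2 lower. That is 18.2%, against 11.6% of all genes and 14.6% of those with a RefSeq name. One of the higher genes, NECTIN4, a nectin, was well above background on 0 sictrl and 4 siUCA1 arrays. It was kept through siUCA1 alone, so neither its call nor its part in the 18.2% is support, and its level was at least 2.16-fold higher in siUCA1. CGNL1, the paracingulin gene and a relative of CGN, fell by 0.88 (limma adjusted p = 0.0146). NECTIN1 fell by 0.60 and NECTIN3 rose by 0.56. ITGA6 and LAMA3, an integrin and a laminin chain of hemidesmosomes, rose by 0.75 and 0.90, and these were the 2 calls among 7 hemidesmosome genes tested (28.6%). GJA3, a connexin, fell by 0.96, the 1 call among 4 gap junction genes (25%). MUC1, a membrane mucin, fell by 1.74 (limma adjusted p = 0.00534) and KLF5, a transcription factor of epithelia, rose by 0.35, the 2 calls among 14 other epithelial genes (14.3%). Among 3 other claudins, 5 other keratins and 4 cornified envelope genes tested, 0 passed in limma, and at an unadjusted p under 0.05 these were 0, 0 and 1. Of 4 ESRP splicing targets tested, CTNND1 among them, ENAH was the 1 call and rose by 0.37 in its kept probe. The kept probe of CD44 did not pass, nor did the probes of FGFR2, at 0.32 and 0.36. These are probe levels, and splicing was not tested.
Of 10 EMT factors and mesenchymal markers tested, 0 were called in limma and 3 had an unadjusted p under 0.05: TAGLN (-0.44, conditions not overlapping, limma adjusted p = 0.0545), TWIST2 (-0.55) and ACTA2 (0.38). VIM differed by -0.35, CDH2 by 0.74, ZEB1 by 0.23, SNAI1 by 0.07, TWIST1 by 0.13 and S100A4 by 0.08, and these genes and TWIST2 were detected on all 8 arrays. ZEB2 and SNAI2 were detected on 0. On siUCA1 A1, VIM stood at 8.05, against 8.74 to 8.90 on the other siUCA1 arrays. On sictrl A3, CDH2 stood at 0.66, against -1.03 to -0.69 on the other sictrl arrays.

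The label was checked against markers of ovarian carcinoma and of other cells. PAX8, MECOM, SOX17 and FOLR1 were detected on all 8 arrays, while WT1, MUC16, MSLN, EMX2 and WFDC2 were detected on 0. The summed level of the 9 ovarian markers ran from 8.19 to 8.90 in sictrl and from 8.91 to 9.56 in siUCA1, and SOX17 and FOLR1 rose by 0.61 and 1.05, while PAX8 and MECOM differed by -0.16 and -0.07 and were not called. Of 9 fibroblast markers, 7 were detected on 0 arrays, with the collagens COL1A2 and COL3A1 among them, COL1A1 was detected on 5, and 0 were tested. The leukocyte list had 4 of 9 detected on all arrays, CD14 rose by 0.70, and CD3E and CD2 were at 0 arrays. Endothelial markers had 5 of 7 detected on 0 arrays, with CDH5 and KDR among them, while VWF was detected on all 8 and differed by -0.08 without a call. Of 8 mesothelial markers, 5 were detected on 0 arrays, and UPK3B fell by 0.38. The summed levels of the fibroblast, leukocyte and endothelial lists overlapped between the conditions, and that of the mesothelial list did not (4.30 to 4.48 against 3.87 to 4.15), a sum carried by UPK3B, while UPK1B, the other mesothelial gene tested, overlapped. The part of these markers in the members' differences was not tested.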

How the data were processed

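The authors deposited the Feature Extraction output (version 10.7.3.1 per the processing notes) of 8 one-color Agilent arrays, with a linear intensity for each spot, background-subtracted and corrected for a surface trend but not normalized between arrays. The deposited intensity was put on the log2 scale, and each array was centred on its own 75th percentile over 60901 spots that were not controls. Outlier spots were left out, repeated spots were averaged, and the brightest kept probe stood for a gene. Accessions were named through RefSeq (GRCh38.p14), with 11995 of 15455 genes named. Differences were tested with limma 3.58.1 in R 4.3.3 (lmFit and eBayes, without a block), with the R package data.table (version 1.17.8) for reading. Python 3.11.15 and matplotlib 3.10.9 drew the plots. The procedure was tested on simulated data. Single genes also had a two-sided exact permutation test, whose smallest p for 4 against 4 is 0.0286. Groups came from the labels. The number of arrays limits the precision.

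The members and lists were chosen with earlier results of these data known. Values on every array are given for each called member and for CDH1, EPCAM, JUP, CLDN4, KRT8, KRT18, KRT19 and KRT7, and at most 4 called genes by size are named from each other list. ELF3 was added after its values were seen.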

Additional observations from a re-analysis of the deposited data

Results flagged for a closer look

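Sets of 4 arrays were searched, those of each tested member, of UCA1 and of 4 array measures, for 1 value far from the other 3, by the gap between that value and its nearest neighbour divided by the whole range. Of 78 sets, 6 were flagged, where chance flags about 1 in 20. DSP on the siUCA1 array A1 (gap ratio 0.978) stood at 4.95, with the other 3 at 5.66 to 5.68. EVPL on the siUCA1 array A1 (0.993) stood at 3.13, with the other 3 at 2.48 to 2.49. KRT19 on the sictrl array A3 (0.862) stood at 10.35, with the others at 9.41 to 9.54. CLDN4 on the sictrl array A3 (0.851) stood at -1.58, with the others at -2.29 to -2.18. The surface trend was far from the others on sictrl A3 (0.944) and on siUCA1 A1 (0.903), the arrays that also gave the DSP, EVPL, KRT19 and CLDN4 values, and its part in those values was not tested.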

How the results depend on the processing

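Of 28 alternatives to the fit as reported, 19 changed the processing or the design, 8 left out 1 array and 1 left out both arrays with the larger surface trend. Members were called higher and lower, in that order, as follows, against 1 and 6 as reported. Median scaling gave 1 and 1 (535 genes called in all, members' median -0.19 and that of all genes -0.07, against -0.09 and 0.03 as reported). Normexp background correction gave 0 and 1 (417 genes). Without a detection filter, which tests far more probes, 0 and 0 were called by limma (76 genes in all, with 10 members at an unadjusted p under 0.05). Surface-trend removal by tiles, the form planned, gave 0 and 0 by limma (252 genes, with 7 members at an unadjusted p under 0.05). A second form, over spots well above background with each array's own median kept, was chosen after seeing that result and gave 2 and 5 (2342 genes). The slide row as a block gave 1 and 3 (8.22% of all genes called), and the slide column as a block 0 and 4 (8.26%). Array weights gave 6 and 8 (4805 genes), and leaving out both arrays with the larger trend 6 and 7 (3957 genes). Leaving out 1 array gave 0 to 4 higher and 2 to 6 lower, and 764 to 2319 genes in all. KRT8 reversed to -0.0721 with the mean of kept probes. KRT19 ran from -0.0280, without siUCA1 A1, to 0.404, without sictrl A3, when 1 array was left out. Why the counts moved was not tested.

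The correlations of deviations between arrays of the same name were 0.04, 0.28, 0.22 and 0.13, so the names were not taken to pair the arrays, and both A1 arrays and sictrl A3 correlated better with an array of another name. With the replicate name as a block, 1 and 6 members were called, with 11.2% of all genes called. EVPL and PKP3 were not among these members, CLDN4 and OCLN were, and 5 were shared. CLDN4 and OCLN were kept through sictrl alone, so their calls are no support. UCA1 kept its direction and call in all 28. Depth is limited by background: 11 members with a probe were at 0 arrays.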
